A study of Mus musculus with 2 samples.

Results

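Interferon-stimulated genes are the antiviral and immune genes that a cell turns on when interferon reaches it. The group described here is a list of 44 mouse genes: 40 such genes and the 4 chains of the type I and type II interferon receptors. Members were taken by symbol under a rule that used no measured value, but the list was chosen with earlier results of these data known. Of the 44, 44 were found among the 43346 genes of the deposited tables. The tables come from total RNA of newborn spleen, postnatal day 0, of mouse strain B6NCrl. One spleen from each of 2 pups of 1 pregnancy gave 1 library (replicate 1 from pup 2, replicate 2 from pup 1). No pup was labelled as treated, so there is 1 group, there are no control samples, and no test between conditions could be made. Both libraries carry the same donor identifier in the labels, and every difference given here compares 2 libraries, with no replicate check.

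Type I interferons bind the receptor pair Ifnar1 and Ifnar2 and type II interferon binds Ifngr1 and Ifngr2, and the kinases Jak1, Tyk2 and Jak2 then phosphorylate STAT proteins. Stat2 and Irf9 are subunits of the complex ISGF3, which binds the interferon-stimulated response element (ISRE), whereas type II signalling acts through the gamma-activated site (GAS). The spleen filters blood, and in the newborn mouse it also makes red cells and granulocytes.

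Totals were 33122187 estimated counts in replicate 1 and 32162543 in replicate 2. The splenic transcription factor genes Tlx1, Nkx2-5 and Tcf21 were all detected, with a summed level of 144 TPM (a level per transcript length, scaled to a fixed total per library) in replicate 1 and 180 in replicate 2. Genes of pancreatic acinar cells, the enzyme-secreting cells of the neighbouring organ, summed to 883 TPM in replicate 1 and 344 in replicate 2. Neutrophil markers summed to 14285 and 20278 TPM, and erythroid markers to 2200 and 1962 TPM.

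Newborn spleen held RNA of nearly the whole list. At 1 TPM or more in both libraries, 42 of 44 members were detected, or 95.5%, beside 55.6% of all protein-coding genes (11932 of 21474). The members together came to 2066 TPM in replicate 1 and 2570 in replicate 2 (2318 ± 356, SD, n = 2), which is 0.232% ± 0.0356 of all TPM. Levels were uneven: the 3 membrane proteins Ifitm1, Ifitm2 and Ifitm3 held 51.1% ± 1.19 of the members' summed TPM. At the other end, 20 members had a mean below 10 TPM, and 21 lay below the median level of detected protein-coding genes, 13.1 TPM. In bulk tissue, fewer cells of a type and less RNA per cell cannot be told apart.

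**Figure D1:**
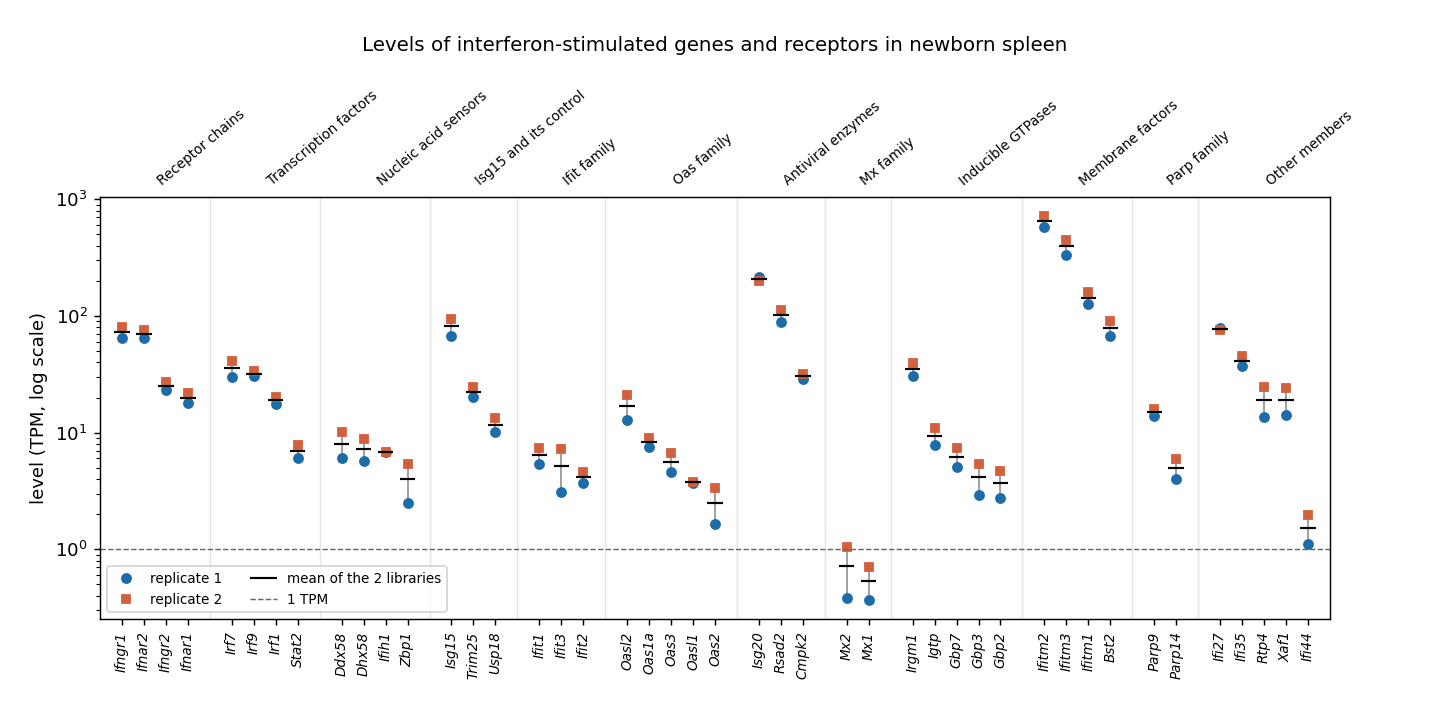
Level of each member in TPM on a log axis, grouped by role; circles are replicate 1, squares replicate 2, the bar is their mean and the dashed line is 1 TPM. Ifitm2 and Ifitm3 stood highest, and Mx1 and Mx2 were the only members with a library below the line.

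The letters of the ISRE and the GAS stood close to the starts of many members. RefSeq promoter windows (GRCm38.p6; 250 bases before to 50 after the start) were at hand for 34 members. The ISRE core GAAANNGAAA, searched on both strands, lay in the windows of 17 of the 34 members, or 50%, beside 3.99% of 27025 genes with a window. With a C required after the last A it lay in 13 members, beside 0.944% of genes. The GAS core TTCNNNGAA lay in 11 of the 34, or 32.4%, beside 9.55% of genes. The 2 motifs can share bases. A match is a description of letters, not a measured site, and binding was not measured.

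The stretches below show where the ISRE core sits in members of high level (Ifitm2, Rsad2, Isg15, Bst2), in a pair of neighbouring family members (Ifit1, Ifit3) and in an Oas and a Gbp gene. Each runs 5′ to 3′ on the gene's own strand, upstream of the RefSeq start, with matches in capitals; TTTCNNTTTC is the core read from the other strand. They lie on GRCm38.p6, with Ifitm2 at chr7:140955978-140956027 (minus strand), Rsad2 at chr12:26456543-26456592 (minus strand), Isg15 at chr4:156200855-156200916 (minus strand), Bst2 at chr8:71537567-71537622 (minus strand), Ifit1 at chr19:34640765-34640833 (plus strand), Ifit3 at chr19:34583353-34583436 (plus strand), Oas1a at chr5:120907526-120907565 (minus strand) and Gbp3 at chr3:142559979-142560034 (plus strand). The outermost bases of the Ifitm2 and Gbp3 stretches, outside the capitals, overlap the GENCODE gene.
Ifitm2: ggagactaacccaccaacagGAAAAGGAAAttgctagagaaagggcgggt
Rsad2: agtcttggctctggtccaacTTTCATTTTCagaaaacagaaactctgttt
Isg15: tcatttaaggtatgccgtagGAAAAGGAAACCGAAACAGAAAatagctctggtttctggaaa
Bst2: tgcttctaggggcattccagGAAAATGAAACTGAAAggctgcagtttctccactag
Ifit1: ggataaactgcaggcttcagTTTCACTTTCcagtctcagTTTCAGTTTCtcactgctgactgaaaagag
Ifit3: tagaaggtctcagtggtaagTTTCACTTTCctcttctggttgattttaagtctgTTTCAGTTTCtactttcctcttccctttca
Oas1a: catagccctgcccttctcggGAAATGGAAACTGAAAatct
Gbp3: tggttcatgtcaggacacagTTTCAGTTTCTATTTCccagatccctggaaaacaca

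In Isg15, 3 overlapping matches formed 1 run of GAAA repeats between 78 and 57 bases before the start, and Bst2, Oas1a and Gbp3 each held 2 overlapping matches. Ifit1 and Ifit3 each carried 2 separate matches in the reversed reading. Over all members, 22 of 26 ISRE core matches were upstream of the start, 21 of them within 160 bases, and 8 members had more than 1. The windows reach 250 bases before the start and 50 after it, so most of their bases are upstream. The count of upstream matches is thus no result on placement. The GAS core is shown for Irf1, a gene known for its response to type II interferon, and for the GTPase gene Igtp. Irf1 at chr11:53769904-53769952 (plus strand) and Igtp at chr11:58199491-58199539 (plus strand) are the positions, and in Igtp an ISRE core in lower case follows the capitals.
Irf1: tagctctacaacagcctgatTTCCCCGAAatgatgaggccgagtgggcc
Igtp: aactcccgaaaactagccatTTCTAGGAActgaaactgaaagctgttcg

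**Figure D2:**
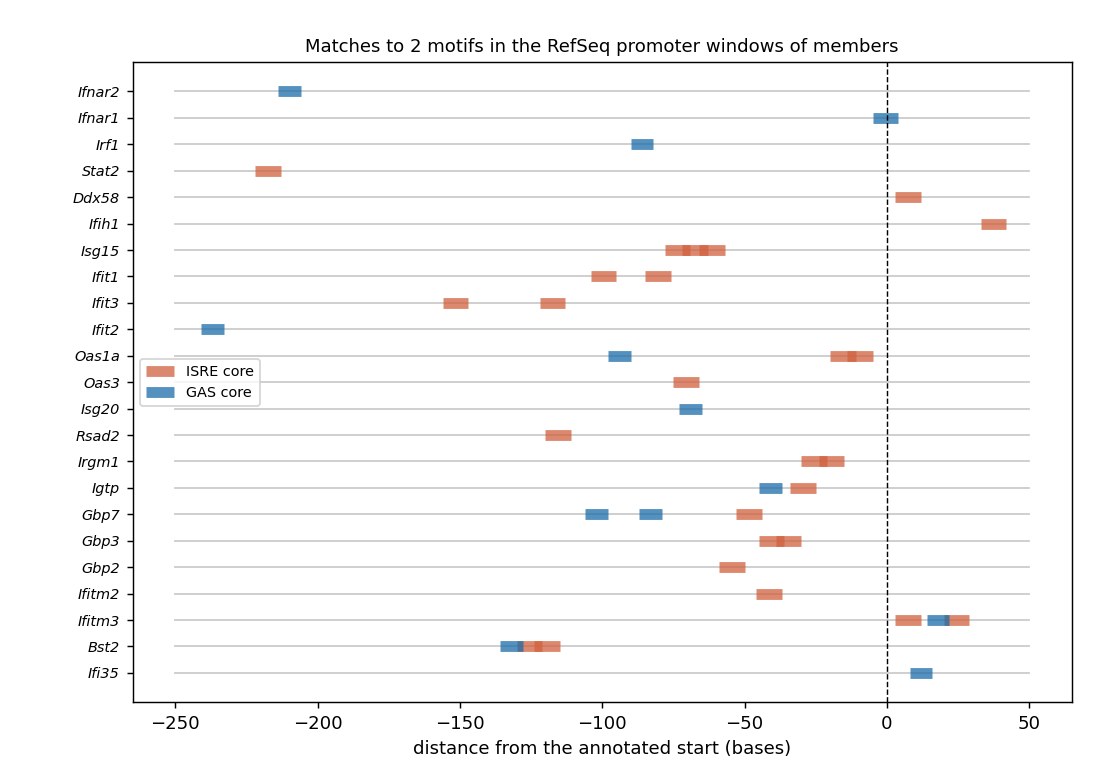
Position of ISRE core (orange) and GAS core (blue) matches in the promoter windows of the members that hold either, in bases from the annotated start (dashed line); grey lines are the windows. Of 26 ISRE core matches, 22 lie upstream of the start, as do most bases of each window (250 before the start, 50 after).

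Members with the ISRE core had the lower median level. The 17 members with an ISRE core had a median level of 8.05 TPM, and the 17 with a window and no core had a median of 25.0 TPM. The group without a core held all 4 receptor chains. Left out for want of a window were Mx1, Mx2, Oas2, Dhx58, Usp18, Ifi27, Zbp1, Rtp4, Parp9 and Parp14. No test was made of this difference.

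All 4 receptor chains were present. Ifngr1, the ligand-binding chain of the type II receptor, was at 65.0 TPM in replicate 1 and 80.9 in replicate 2, and its partner Ifngr2 at 23.1 and 27.0. Ifnar2, the high-affinity chain of the type I receptor, was at 65.0 and 75.5 TPM, and Ifnar1 at 17.8 and 21.8. The order of means was Ifngr1, Ifnar2, Ifngr2, Ifnar1, and in each pair the libraries of the more abundant chain lay above both of its partner: Ifnar2 was 3.55 ± 0.131 times Ifnar1 and Ifngr1 was 2.91 ± 0.134 times Ifngr2 (SD, n = 2). Ifngr1 and Ifnar2 overlapped in their values. Ifnar1, Ifnar2 and Ifngr2 lie in 1 cluster on chromosome 16, and Ifngr1 lies on chromosome 10.

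Ifnar2 RNA was split between a long and a short transcript model. Ifnar2-203, a model of 1099 nt with a reading frame of 248 residues, held 63.3% ± 0.78 of the gene's TPM. Ifnar2-201, of 3047 nt and 513 residues, held 27.1% ± 2.42. It was at 18.7 TPM in replicate 1 and 19.2 in replicate 2, beside 17.8 and 21.8 for all models of Ifnar1. The ratio of 3.55 to Ifnar1 thus holds for the sum of the Ifnar2 models. Of Ifnar1 TPM, 30.8% sat on models that are not protein-coding. By estimated counts the order turned, with 41.7% for Ifnar2-203 and 52.6% for Ifnar2-201, because TPM divides by length. The gene is known to make membrane-bound and shorter soluble receptor forms, and which form each model encodes was not examined. Ifnar2 shares exon positions with another counted gene on its strand, Gm21970.

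RNA of the ligands themselves was at or near 0. Of 21 listed interferon genes, 0 reached 1 TPM in both libraries and 18 had 0 counts in both, which allows up to 3 counts, or 0.0906 CPM in replicate 1 and 0.0933 in replicate 2 ( counting error only). Ifng, the type II interferon, had 6 and 17 estimated counts, Ifnk 8 and 7, and Ifnz 0 and 11.6. Other receptors for the same signals were uneven: Il10rb, shared by lambda interferons and interleukin-10, was at 32.4 and 36.7 TPM, whereas the lambda-specific chain Ifnlr1 was at 0.89 and 1.19.

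The machinery between receptor and gene was present throughout. Of 5 listed kinases and STATs 5 were detected, with the kinase gene Jak1 at 50.1 and 59.0 TPM. Irf9 was 4.61 ± 0.543 times Stat2 (SD, n = 2), and its lower library lay above both libraries of Stat2. Stat2 itself, known as the subunit specific to type I and III signals, was at 6.06 TPM in replicate 1 and 7.90 in replicate 2. Irf9, the DNA-binding subunit, was at 30.3 and 33.4 TPM. Irf7, which drives type I interferon genes, was at 29.8 and 41.2 TPM, and Irf1 at 17.5 and 20.3. Irf7 was the member of this role in which the libraries stood farthest apart, 1.30-fold higher in replicate 2 (95% counting interval 1.21 to 1.40).

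Among 12 matched adaptors and upstream regulators of sensing, 10 were detected, with Irf8 (29.1 and 43.2 TPM) and Irf3 (34.3 and 37.6) highest. Negative regulators were detected in 10 of 10 cases, and the ribonuclease H2 subunits Rnaseh2c (143 and 122 TPM) and Rnaseh2a (143 and 120) led. They were among the 4 of the 10 that stood higher in replicate 1.

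The sensors of foreign nucleic acid were low and narrow in range, from a mean of 3.97 to 8.05 TPM. The RNA helicase Ddx58 (RIG-I) was at 6.05 and 10.0 TPM, Dhx58 at 5.75 and 8.73, and Ifih1 (MDA5) at 6.85 and 6.84. Zbp1, a sensor of Z-form nucleic acid, was at 2.50 and 5.43. Ifih1 did not separate the libraries, whereas Zbp1 was 1.99-fold higher in replicate 2 (1.51 to 2.73). Of Ddx58 TPM, 70.8% sat on models without a protein-coding class, and 54.3% of its counts.

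Isg15, the ubiquitin-like modifier, stood well above the members grouped with it, Usp18 and Trim25. Its level was 67.9 TPM in replicate 1 and 94.8 in replicate 2, and it was 6.95 ± 0.263 times Usp18, the protease that removes it. Usp18 was at 10.0 and 13.3 TPM and the ubiquitin and Isg15 ligase Trim25 at 20.3 and 24.7.

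The Ifit, Oas and Mx families were low, with Oasl2 as the exception. The 3 Ifit genes, which bind foreign RNA ends and lie together on chromosome 19, had means of 4.15 to 6.40 TPM. The 5 Oas and Oasl genes, which include the enzymes that activate RNase L, had means of 2.51 to 17.0 TPM. Mx1, a GTPase gene, was at 0.37 TPM in replicate 1 and 0.70 in replicate 2, from 31.0 and 56.5 estimated counts. In replicate 1 the protein-coding model Mx1-202 held 64.9% of Mx1 TPM. In replicate 2 the model Mx1-205, marked for nonsense-mediated decay, held 92.9%. Whether Mx1 RNA here encodes a working protein was not examined. Mx2, classed by the annotation as a polymorphic pseudogene, was at 0.38 and 1.05 TPM, from 19.0 and 47.5 counts. Both Mx genes were higher in replicate 2, and 1 library of Mx2 passed 1 TPM.

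In Oasl2, the leading model was one marked for nonsense-mediated decay: Oasl2-205 held 47.2% ± 3.12 of the gene's TPM and 57.4% of its counts. All Oasl2 models that are not protein-coding together held 74.1% of its TPM and 69.7% of its counts. Of the 32 detected members with more than 1 model, the leading model by mean share of TPM was protein-coding in 31. In Irf7, Xaf1 and Parp14 a model that is not protein-coding led in 1 library, and by counts the retained-intron model Irf7-210 led Irf7, with 35.9% beside 34.0% for Irf7-202. Parp14 differed between the scales, with 50.3% of TPM but 7.16% of counts on models that are not protein-coding.

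The antiviral enzymes were all above the median of detected protein-coding genes. Isg20, an exonuclease that degrades RNA, was at 214 TPM in replicate 1 and 200 in replicate 2, at the 96.0th percentile of detected protein-coding genes. Rsad2 (viperin), which makes a chain-terminating nucleotide, was at 88.7 and 113 TPM, and its divergent neighbour on chromosome 12, Cmpk2, a nucleotide kinase, at 28.9 and 31.7. Rsad2 was 3.32 ± 0.356 times Cmpk2 and 15.9 ± 0.977 times Ifit1. The stretches printed above hold 1 ISRE core match for Rsad2 and 2 for Ifit1, and a link of matches to level was not tested. Isg15 was 12.7 times Ifit1 in each library. The closeness of these 2 ratios leaves out counting error, with Ifit1 at 430.5 and 566.7 estimated counts.

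The membrane factors were the highest role. Ifitm2 was at 576 TPM in replicate 1 and 723 in replicate 2, Ifitm3 at 336 and 452, and Ifitm1 at 126 and 160; these proteins hinder virus fusion and lie in 1 cluster on chromosome 7. Values of the 3 genes did not overlap, and each was higher in replicate 2. Bst2 (tetherin), which holds budding virus at the cell surface, was at 67.4 and 90.3 TPM.

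The inducible GTPases, known for attacking the vacuoles of intracellular pathogens, ranged in mean from 3.71 TPM for Gbp2 to 35.0 for Irgm1 (30.6 and 39.5). The other members ran from Ifi44, at 1.10 and 1.96 TPM, to Ifi27, a mitochondrial protein gene, at 78.1 and 75.8. Ifi35 was at 37.1 and 45.5 TPM.

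The libraries differed in 1 direction for most members. Differences were computed from estimated counts after scaling by TMM, which sets the bulk of genes equal. By any amount, 40 of 44 members were higher in replicate 2, or 90.9%, beside 50.9% of 15499 genes tested. The members' median log2 ratio was 0.26, beside 0.0057 for all genes. At least 1.5-fold, 9 of 44 members (20.5%) were higher in replicate 2, beside 4.54% of all genes, and 0 were higher in replicate 1, beside 2.55%. The 95% counting interval lay above no difference in 31 members, below it in 2 and across it in 11.

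**Figure D3:**
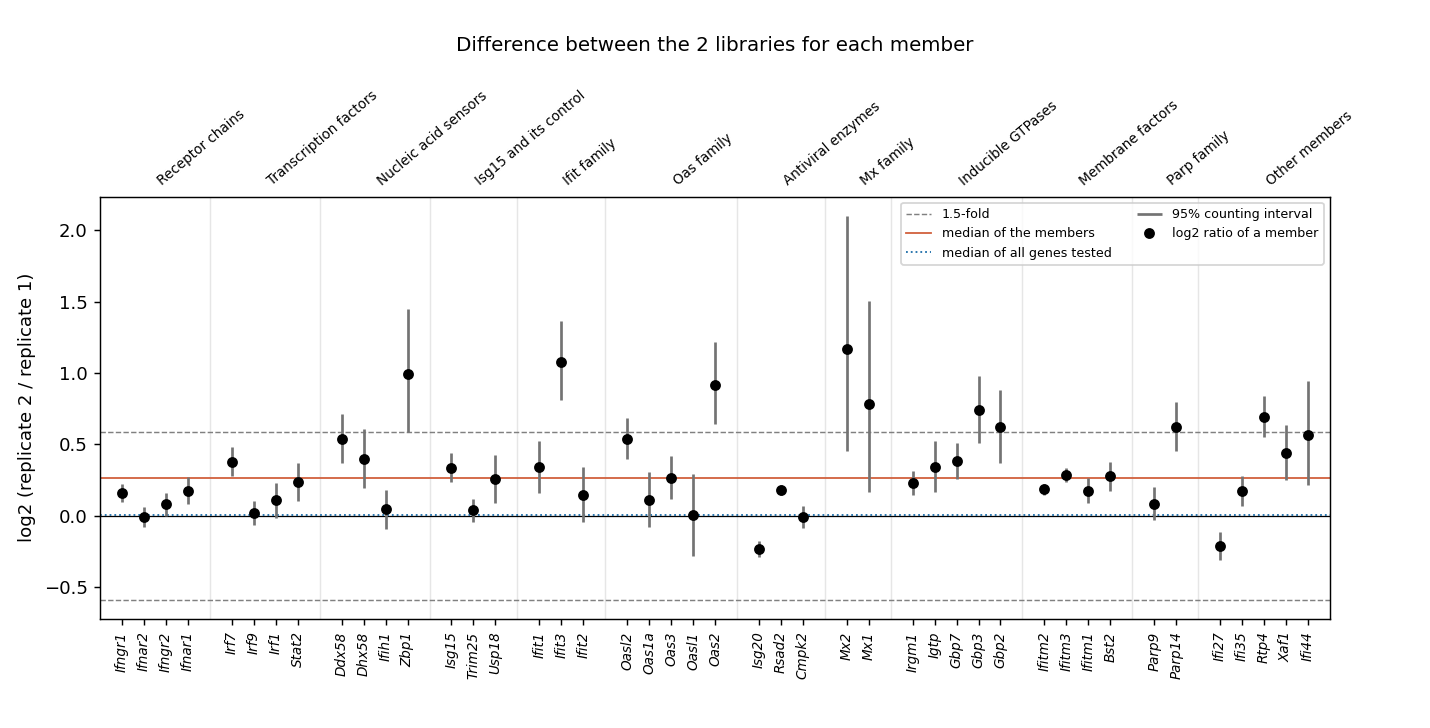
Log2 ratio of replicate 2 to replicate 1 for each member, by role, with the 95% interval of counting error; dashed lines mark 1.5-fold, the orange line is the members' median (0.26) and the dotted line that of all genes (0.0057). Isg20 and Ifi27 are the 2 members whose interval lies below 0.

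The 9 members were Ifit3, Mx1, Mx2, Oas2, Gbp2, Gbp3, Zbp1, Rtp4 and Parp14. Ifit3 rested on 160 and 354 estimated counts, a ratio of 2.11 (1.76 to 2.58), and its near-identical neighbour Ifit3b on 69.3 and 90.5, a ratio of 1.25. Oas2 was at 1.64 and 3.38 TPM (1.89-fold, 1.57 to 2.32). Gbp3 was at 2.92 and 5.37 (1.67-fold, 1.42 to 1.98) and Gbp2 at 2.74 and 4.68 (1.54-fold, 1.30 to 1.84). Rtp4, a receptor-transporting protein gene, was at 13.7 and 24.5 TPM (1.62-fold, 1.47 to 1.79). Parp14, an ADP-ribosyltransferase gene, was at 4.04 and 5.96 (1.54-fold, 1.37 to 1.74). Mx2 was 2.25-fold higher in replicate 2, with an interval from 1.37 to 4.29, and Mx1 1.72-fold (1.12 to 2.83). Just under the threshold lay Ifi44 (1.48-fold), Oasl2 and Ddx58 (both 1.45-fold). In the other direction, Isg20 had a ratio of 0.850 (0.818 to 0.884) and Ifi27 of 0.865 (0.807 to 0.926), whereas Cmpk2 (0.996) and Ifnar2 (0.994) lay at no difference and turned higher in replicate 2 when scaled by library size or by TPM.

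Low genes in general leaned towards replicate 2. Among all genes tested, the median log2 ratio was 0.10 below 10 TPM, -0.035 from 10 to 50 TPM and -0.15 above. The members' medians in the same ranges were 0.47 (20 members), 0.17 (14 members) and 0.18 (10 members). At least 1.5-fold higher in replicate 2 were 8 of the 20 lowest members, beside 8.03% of all genes below 10 TPM, 1 of the 14 beside 0.608%, and 0 of the 10 beside 0.267%. In each range the members' median was above that of all genes.

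**Figure D4:**
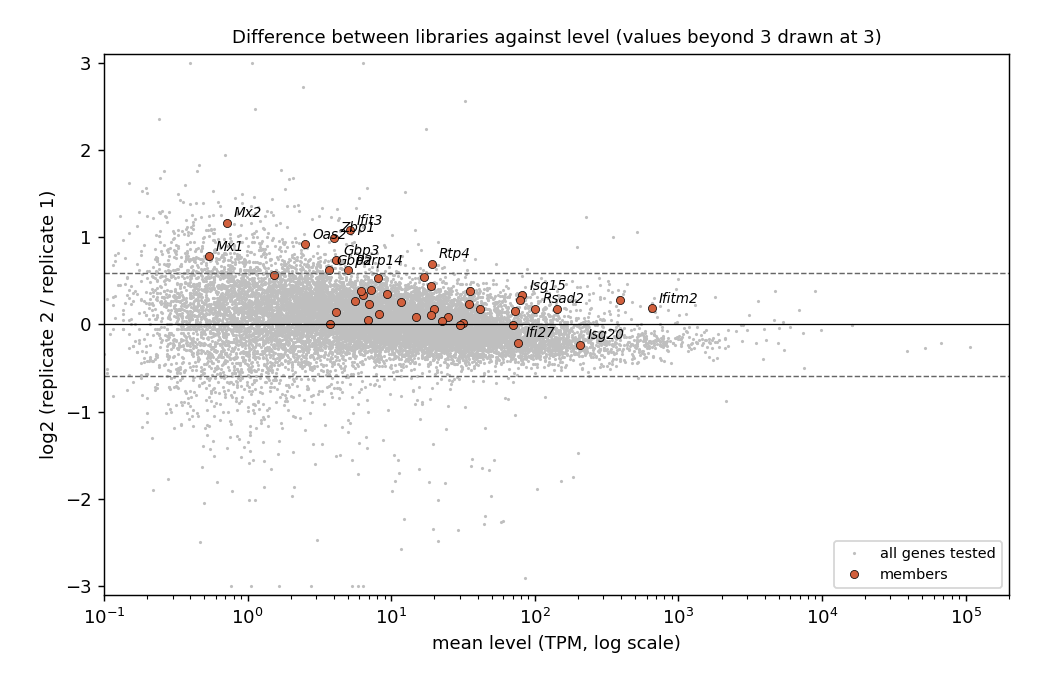
Log2 ratio of replicate 2 to replicate 1 against mean TPM (log axis) for all 15499 genes tested (grey) and the members (orange); dashed lines mark 1.5-fold. The members past 1.5-fold, apart from Rtp4, have means below 10 TPM.

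Other interferon-stimulated genes outside the list leaned the same way. Of 39 matched genes 34 were detected, and the median level of the list was 5.14 TPM. Of 38 tested, 35 were higher in replicate 2, with a median log2 ratio of 0.30. The share over all genes tested was 50.9%, and 63.7% below 10 TPM. At least 1.5-fold higher were 5 of the 38, beside 4.54% of all genes and 8.03% of those below 10 TPM. The 2 of highest level were Ifi27l2a (129 and 164 TPM) and the immunoproteasome subunit gene Psmb8 (51.5 and 69.8). Chosen after their values were seen, the chemokine genes Cxcl10 (33 and 91 counts) and Cxcl9 (5 and 35 counts) stood 2.56-fold and 5.11-fold higher. These were the largest ratios among the tested genes of the list, and no counting interval was computed for them. Cxcl9 lay below 1 TPM in both libraries, at 0.06 and 0.42 TPM.

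Markers of several cell types moved with the members. Over all genes tested, 50.9% were higher in replicate 2 by any amount. Macrophage markers were higher in replicate 2 in 10 of 10 genes (median log2 ratio 0.46, summed TPM 310 and 465), neutrophil markers in 8 of 8 (0.36), natural killer cell markers in 4 of 4 (0.47, 46.9 and 74.0), B cell markers in 6 of 6 (0.31, 130 and 183) and stromal markers in 5 of 5 (0.31, 768 and 1088). Endothelial markers were higher in 5 of 5 (0.17, 218 and 263) and T cell markers in 3 of 4 (0.23, 17.9 and 23.4). Erythroid markers were lower in 5 of 5 (-0.34) and acinar markers in 5 of 5 tested (-1.75). Plasmacytoid dendritic markers, the cell type known for high interferon output, were split at 3 of 6. The 3 lower genes were Klk1 (ratio 0.443, at 6.12 and 2.94 TPM), Siglech (0.915, at 1.14 and 0.97) and Ccr9 (0.921, at 0.86 and 0.94). Siglech and Ccr9 thus lay near 1 TPM and near no difference. Bst2 and Irf8 stand in that list too, among the 3 higher genes. The acinar gene Pnlip, with 5 counts in replicate 1 and 0 in replicate 2, was the only listed marker at 0 in a library. The part of these cell types in the members' difference was not tested.

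**Figure D5:**
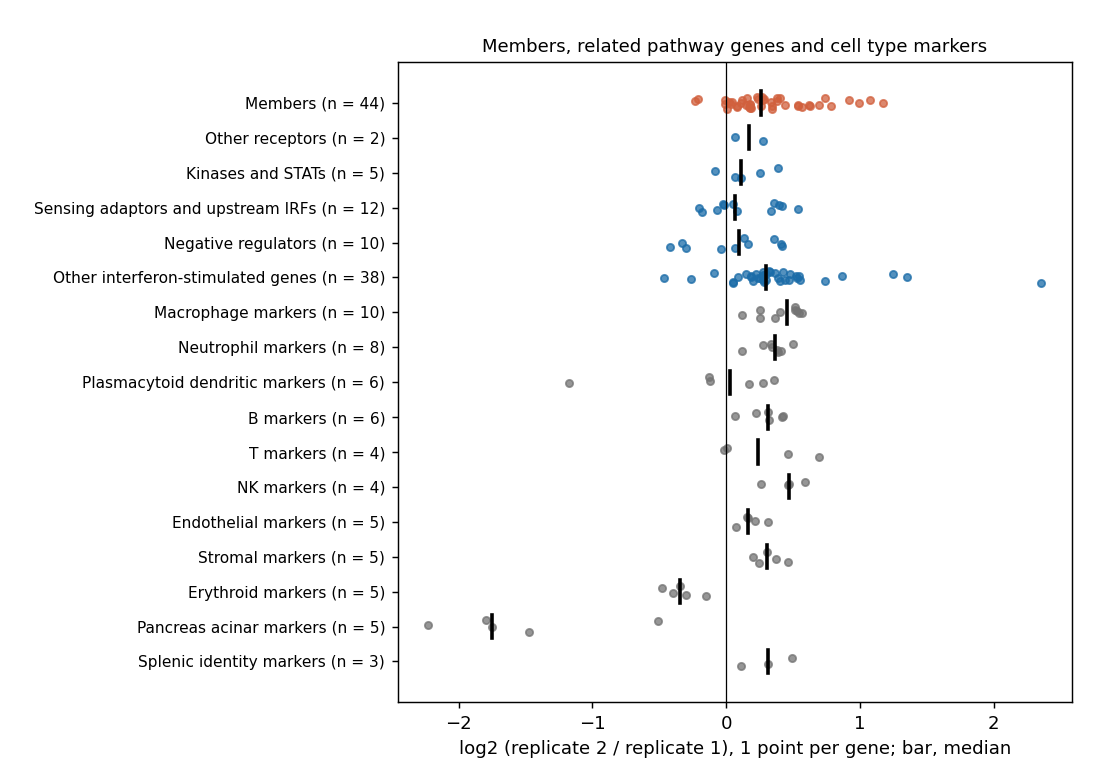
Log2 ratio of replicate 2 to replicate 1 for each tested gene of the members (orange), related pathway lists (blue) and cell type marker lists (grey); black bars are medians. The members' median of 0.26 lies between those of the endothelial (0.17) and macrophage (0.46) markers, and the erythroid and acinar lists lie below 0.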

How the data were processed

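Total RNA longer than 200 nt from 2 newborn spleens was sequenced, with 10 ng of input and spike-ins, per the labels. The authors deposited gene and transcript tables on mm10 with GENCODE M4 models, per the labels and the deposited text listing. Aligner, software versions and strand setting were not given in the sources used here. Genes with overlapping exons (10 members) may share reads. Deposited expected counts are estimated counts that need not be whole, and deposited TPM values are per length. The authors also deposited the posterior SD of each count, a non-negative signal of how reads were divided among features, at most 5.78 counts for members.

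GENCODE M21 (GRCm38) supplied gene names, classes and positions through the Ensembl identifiers. Levels are deposited TPM as mean ± SD. For differences, edgeR 4.0.16 under R 4.3.3 was run on the rounded counts with TMM scaling and a prior count of 2, keeping genes whose mean count reached 20. The scaling was checked on simulated counts by the median ratios of sets of genes. Ratios of single genes, the 1.5-fold threshold and the intervals were not checked in this way. Counting intervals are exact (Clopper-Pearson, 95%) and cover counting error only. Alternatives were DESeq2 1.42.0 size factors, library size, TPM ratios, other priors, filters, thresholds and motifs, and, chosen after seeing the data, spike-in totals. Tables, intervals and plots were made in Python 3.11.15 (matplotlib 3.10.9, scipy 1.17.1, pandas 2.3.3, numpy 2.4.6).

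The members and gene lists were chosen with earlier results of these data known. Values per library are given for the 12 members of highest mean TPM, those below 1 TPM in a library, those at least 1.5-fold apart, and the receptors, Irf and Stat members; other named members illustrate a role. In each pathway list the 2 highest genes are named, apart from 1 that is not reported here, and further genes were chosen after their values were seen.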

Additional observations from a re-analysis of the deposited data

How the results depend on the processing

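With 2 libraries of 1 group there is no test. No paired analysis was possible because there is a single group. The summed level ran from 2066 to 2570 TPM and the number detected from 42 to 43 when 1 library was left out; at 2 TPM 40 members were detected. The number at least 1.5-fold apart was 9 with TMM, 12 by library size, 13 by TPM ratio, 7 by spike-in totals (chosen after seeing the data) and 2 at a fold of 2 (Ifit3 and Mx2). Parp14 fell below 1.5-fold by TPM ratio, and Gbp2 and Parp14 did so by spike-in totals. The median log2 ratio was 0.41 by TPM ratio, where that of all genes was 0.14. By library size it was 0.36, where all genes were at 0.11. The difference between members and all genes lay between 0.256 and 0.273 in every scaling and filter run. A change of scaling factor shifts all genes by nearly the same amount, so it could hardly alter this difference and is no check of it. Members higher in replicate 2 numbered 42 by library size, 41 by TPM ratio and 36 by spike-in totals, which rested on 694 and 748 counts and put Oasl1, Irf9, Ifih1 and Trim25 higher in replicate 1 as well. The stricter ISRE core lay in 13 members instead of 17. Leading transcript shares moved by more than their SD in 22 of 32 members when taken from counts. Depth limits genes that rest on few counts, such as Mx1, Mx2 and Ifng.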
